A study of Mus musculus with 30 samples.

Results

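A set of 10 genes of the inflammatory response was followed here across 30 mouse RNA-seq libraries. Its members were the rows of the deposited count table named Il1a, Il1b, Il18, Tnf, Ccl3, Ccl4, Nlrp3, Pycard, Casp1 and Il10ra, 10 of 51752 genes. The study removed interleukin-34 (IL-34), a cytokine that signals through CSF1R, in 2 ways, by gene deletion and by antibody. In the genotype experiment 3 Il34 knockout (KO) mice were compared with 4 Il34 heterozygous (Het) mice, so the controls carried 1 intact copy of Il34. In the antibody experiment 4 wild-type mice given a blocking anti-IL34 antibody were compared with 4 wild-type mice given anti-gp120, the control antibody. All 15 animals were perfused with saline, and each gave 1 library of whole forebrain from 1 hemisphere and 1 library of cells isolated from the other with magnetic beads against CD11b, a procedure that enriches microglia. The Het animals were males 1 and 21 and females 20 and 23, and the KO animals were male 3 and females 6 and 24. The anti-gp120 animals were males 1 and 7 and females 8 and 15, and the anti-IL34 animals were males 2, 10 and 24 and female 11. Equal numbers in the 2 experiments are different animals. Age, antibody dose and schedule were not given in the sources used here. The labels do not say whether the animals of an arm were littermates.

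Interleukin-1 alpha (Il1a), interleukin-1 beta (Il1b), interleukin-18 (Il18) and tumour necrosis factor (Tnf) are cytokines that start inflammation. Ccl3 and Ccl4 encode chemokines that draw leukocytes. Nlrp3 encodes a sensor of cell damage, Pycard the adaptor ASC, and Casp1 the protease caspase-1; together they form the inflammasome, which cuts the precursors of IL-1 beta and IL-18 into their active forms. Il10ra encodes the ligand-binding chain of the receptor for interleukin-10, a cytokine that restrains these genes. In the brain, microglia are known as the main source of several of them, and transcripts of Il1a, Il1b, Tnf, Ccl3 and Ccl4 are known to be induced within minutes to hours.

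The core promoters of 4 cytokine genes are shown so that their start regions can be set side by side: Il1a, Il1b and Tnf, which were under 1.5 CPM in every control forebrain library, and Il18, which was at 22.6 CPM or more. RefSeq (GRCm38.p6) promoters were at hand for 8 of the 10 genes, and Ccl4 and Il10ra were not matched. The motifs searched were TATAAA and TATATA, which can overlap and were counted once per promoter, starting 35 to 25 bases before the annotated start. On the gene's strand 3 of the 8 genes held one, Il1a, Il1b and Tnf, against 2.39% of 32851 promoters. On either strand it was the same 3 genes and 2.73% of promoters. A single fixed form of the NF-kB consensus, searched on both strands over 250 bases, was found in 1 of the 8 genes (Nlrp3) and in 7.25% of promoters. Sites that depart from that form, or lie further away, were not searched. The 80 bases before the start are given 5′ to 3′ on the gene's strand, with the TATA motif in capitals where one was found in that window. Il18 holds none there.
Il1a (chr2:129309973-129310052, minus strand): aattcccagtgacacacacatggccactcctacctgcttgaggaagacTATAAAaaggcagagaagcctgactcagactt
Il1b (chr2:129371140-129371219, minus strand): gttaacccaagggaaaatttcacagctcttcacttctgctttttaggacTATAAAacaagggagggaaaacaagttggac
Tnf (chr17:35202008-35202087, minus strand): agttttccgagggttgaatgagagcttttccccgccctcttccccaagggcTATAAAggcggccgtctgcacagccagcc
Il18 (chr9:50554620-50554699, plus strand): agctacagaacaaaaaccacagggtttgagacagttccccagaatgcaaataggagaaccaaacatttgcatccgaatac
Ccl3, also near 0 in forebrain, held no match in the searched window. The RefSeq starts used for Ccl3 and Il18 differ from the GENCODE starts given below, so a match depends on the start chosen. Over 250 bases before the start, 5 of the 8 genes held a TATA motif on the gene's strand (Il1a, Il1b, Il18, Tnf and Nlrp3), against 11.5% of promoters. The motif in capitals starts 32 bases before the start in Il1a, 31 in Il1b and 29 in Tnf. These matches describe letters in a window and were not related to any measured binding.

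In GRCm38 (GENCODE M21) Il1a (ENSMUSG00000027399) lies on chromosome 2 from 129299610 to 129309972 and Il1b (ENSMUSG00000027398) on the same chromosome from 129364570 to 129371139, both on the minus strand. Of the exon bases of Il1a 92.1% lie inside Gm14023 on the other strand, and 27.3% of those of Il1b lie inside the antisense gene Il1bos. Il18 (ENSMUSG00000039217, chromosome 9, 50554827 to 50581840, plus strand) shares 14.6% of its exon bases with Bco2 or Tex12. Pycard (ENSMUSG00000030793, chromosome 7, 127989708 to 127993867, minus strand) shares 12.8% with Gm45205. Il10ra (ENSMUSG00000032089, chromosome 9, 45253837 to 45269149, minus strand) shares 0% of exon bases, though Gm20612 and Mir7086 lie in its span. Tnf (ENSMUSG00000024401, chromosome 17, 35199381 to 35202007, minus strand), Ccl3 (ENSMUSG00000000982, chromosome 11, 83647844 to 83649355, minus strand) and Ccl4 (ENSMUSG00000018930, chromosome 11, 83662584 to 83664683, plus strand) overlap no annotated gene. The same holds for Nlrp3 (ENSMUSG00000032691, chromosome 11, 59541568 to 59566956, plus strand) and Casp1 (ENSMUSG00000025888, chromosome 9, 5298517 to 5307265, plus strand). Strand use in counting is not given in the sources used here, so reads of the overlapping genes cannot be told apart. Gm14023 and Il1bos had at most 1.53 and 2.17 CPM in the isolates, but Bco2 had 19.5 to 70.6 CPM there, a level like that of Il18. Reads in shared bases may also have been left out of a gene's count, and Itgam, with 99.1% of its exon bases inside Gm49368, was near 0, so the level of Il1a may be too low.

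Levels are counts per M reads of the library (CPM, with M for mega) with TMM scaling, a correction for library composition. Library totals ran from 15.5 to 75.2 M counts in control forebrain, 15.1 to 53.8 M in forebrain of KO and anti-IL34 animals, and 15.8 to 50.5 M in the isolates. Il34 itself ran from 19.2 to 23.5 CPM in Het and 6.78 to 8.75 CPM in KO forebrain, without overlap. In the isolates, where it is low, it ran from 4.89 to 9.82 CPM in Het and 5.15 to 6.67 CPM in KO, with overlap. Under antibody, which is not aimed at the transcript, it ran from 31.8 to 38.9 CPM with anti-gp120 and 36.6 to 41.4 CPM with anti-IL34 in forebrain. The isolates carried the markers of myeloid cells: 11 of 11 homeostatic microglia genes tested were higher than in forebrain. Itgam, which encodes CD11b, was at 0 to 3 reads in every isolate, and 99.9% of its span lies inside Gm49368. The isolates also held transcripts that mark other brain cells. The summed level of 6 astrocyte genes was 3086 to 10900 CPM in Het and 12350 to 15240 CPM in KO isolates, that of 6 oligodendrocyte genes 3084 to 10250 and 7785 to 18420 CPM, and that of 6 neuron genes 107.8 to 403.4 and 364.7 to 603.3 CPM. In the antibody experiment the astrocyte sum was 4617 to 18020 CPM with anti-gp120 and 9838 to 18300 CPM with anti-IL34, the oligodendrocyte sum 4050 to 10040 and 6091 to 13130 CPM, and the neuron sum 191.6 to 580.4 and 420 to 728.3 CPM. The sum of 6 choroid plexus and ependyma genes differed between the experiments, at 1613 to 3806 CPM in Het, 1125 to 3049 CPM in KO, 11.2 to 25.6 CPM with anti-gp120 and 10.7 to 2073 CPM with anti-IL34 isolates. The part of these cells in the results below was not tested. In both tissues, fewer cells of a type and less RNA per cell cannot be told apart.

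In control animals all 10 genes were higher in the isolates than in whole forebrain, but by very different amounts. The gap was widest for the chemokine genes and Tnf, wide for Il1a, Il1b, Nlrp3 and Il10ra, narrower for Pycard and Casp1, and narrowest for Il18. Tnf had 9 reads in all 8 control forebrain libraries together, 4 of which had 0, so that its pooled level was 0.0241 reads per M (exact Poisson 95% interval 0.011 to 0.0457, counting error only). Ccl4 had 13 reads (0.0347 reads per M, interval 0.0185 to 0.0594) and Ccl3 35 reads (0.0935 reads per M, interval 0.0651 to 0.13). These chemokine and Tnf transcripts were at the edge of detection in tissue at this depth. In the isolates of the same animals Tnf had a median of 66.6 CPM (14.9 to 101.1), Ccl4 of 164.1 CPM (109.6 to 336.4) and Ccl3 of 187.6 CPM (74.1 to 365.7).

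Il1a had a median of 0.976 CPM in control forebrain (0.491 to 1.38) and 336.8 CPM in the isolates (125.8 to 536.8). Il1b had 0.231 CPM (0 to 0.372) and 61.6 CPM (23.9 to 150.9). Nlrp3 had 1.14 CPM (0.923 to 1.71) and 211.9 CPM (92.2 to 341.1). Its partner Pycard had 1.496 CPM (1.11 to 2.25) in forebrain and 22.4 CPM (15.3 to 35.1) in the isolates. Casp1 had 1.17 CPM (0.683 to 2.703) and 19.8 CPM (14.7 to 30.0). Il10ra had 4.45 CPM (3.15 to 10.2) and 492.2 CPM (269.1 to 607.5). Il18 had 24.8 CPM (22.6 to 28.04) in forebrain and 47.5 CPM (38.0 to 56.4) in the isolates, the smallest gap of the 10. No control isolate overlapped a control forebrain library in any of the 10 genes, and the same held, in this direction, for 28.8% of the 19952 genes tested. Il1b, Tnf, Ccl3 and Ccl4 were tested only because of their isolate counts and had to differ, so nothing is read from this count.

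The fitted differences, with experiment and sex as covariates, were 8.58 on the log2 scale for Il1a (SE 0.286, edgeR adjusted p 1.56e-13), 8.35 for Il1b (SE 0.398), 7.58 for Nlrp3 (SE 0.226) and 6.54 for Il10ra (SE 0.240). Casp1 and Pycard differed by 4.11 (SE 0.211) and 3.95 (SE 0.126), and Il18 by 1.00 (SE 0.0821, edgeR adjusted p 8.56e-09). The fits gave 12.37 for Ccl4, 11.18 for Tnf and 11.09 for Ccl3, but these 3 genes passed the filter on low counts only through the isolates, where they are high. They had to differ, and their size is set by the 9 to 35 reads in forebrain, so no p is given. Il1b, with 83 reads in the 8 control forebrain libraries, also passed the filter through the isolates. Its 8.35 stands under the same limit. All 10 passed the threshold of an adjusted p under 0.05 (Benjamini-Hochberg) upward, as did 40.5% of all genes tested. With these genes among them nothing is read from that count. For reference, 11 homeostatic microglia genes ran from 4.09 to 6.17 and 11 pan-myeloid genes from 4.80 to 6.11. Immediate early and heat-shock genes, which cells induce quickly when handled, were also higher in the isolates in 14 of 14 cases (median 5.16, 1.61 to 11.87), with Hspa1a at 10.13 and Zfp36 at 9.09; their part in the members' levels was not tested. Within the Het arm alone the log2 ratio of mean levels was 8.70 for Il1a, 8.04 for Il1b, 7.48 for Nlrp3 and 6.88 for Il10ra, and within the anti-gp120 arm 8.48, 8.86, 7.70 and 6.2.

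**Figure D1:**
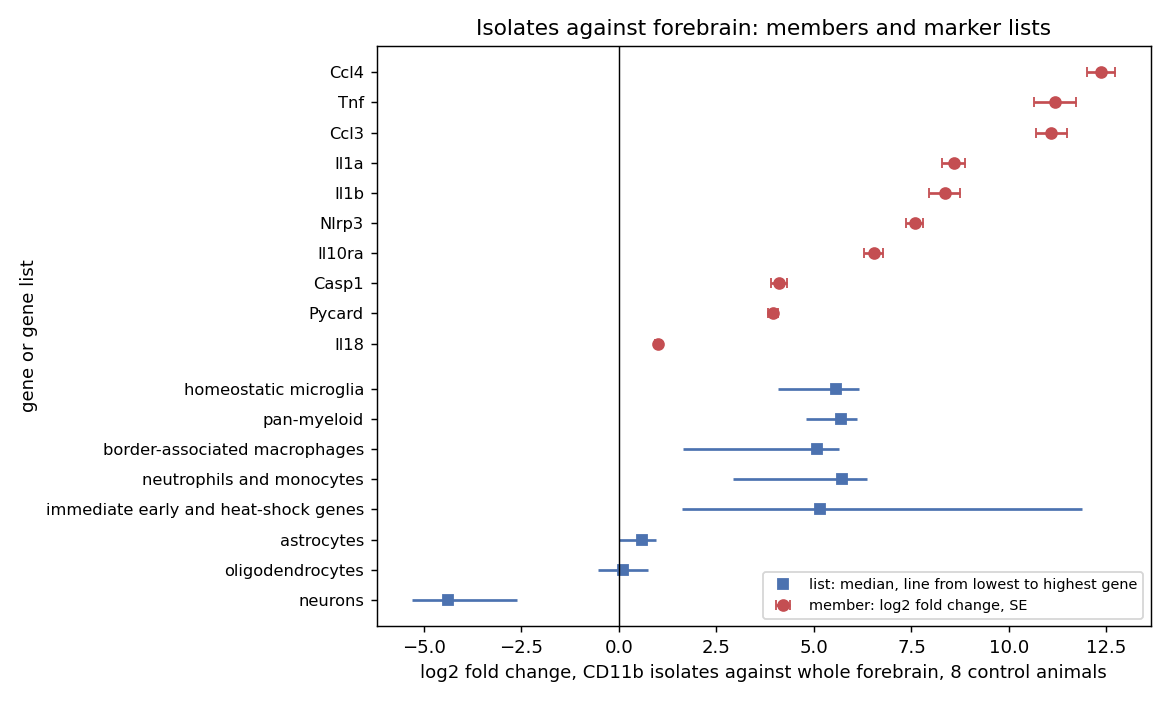
Log2 fold change of CD11b isolates against whole forebrain in 8 control animals (x axis) for each member with its SE (red), and for marker lists the median with a line from the lowest to the highest gene (blue). Ccl4, Tnf and Ccl3 lie above 11 but rest on 9 to 35 forebrain reads each, the homeostatic microglia list spans 4.09 to 6.17, and Il18 lies at 1.00.

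Between genes, levels were compared per kilobase of exon. This order is uncertain, because counting settings are not given. The deposited Length equals the whole gene span for 51183 of 51498 matched genes, so reads in introns may have been counted. Genes with long introns, such as Il18 (1031 exon bases in a span of 27014) and Nlrp3 (4057 in 25389), may then stand too high. Il18 also shares 14.6% of its exon bases with Bco2 or Tex12. In control isolates Ccl4 led with 278 ± 115 CPM per exon kilobase (SD, n = 8), followed by Ccl3 (251 ± 117), Il1a (174 ± 67.1) and Il10ra (135 ± 37.4). Next came Nlrp3 (55.2 ± 20.2), Il18 (46.3 ± 5.6), Il1b (38.8 ± 21.0) and Tnf (38.0 ± 18.4), and the lowest were Casp1 (14.2 ± 3.57) and Pycard (6.04 ± 1.68). Over the 8 libraries the ranges of neighbours overlapped except for Casp1 and Pycard. Within a library, Ccl3 lay above Il1a, Il10ra above Nlrp3 and Casp1 above Pycard in 8 of 8 isolates, while Nlrp3 lay above Il18 and Il1b above Tnf in 4 of 8. The place of Il1a is uncertain, because 92.1% of its exon bases lie inside another gene and reads there may not have been counted for it. In forebrain Il18 led with 24.5 ± 2.05 CPM per exon kilobase, without overlap with Il10ra (1.61 ± 0.735), which came next, before Casp1 (0.909 ± 0.457). Ccl3, Il1b, Ccl4 and Tnf came last, with means of 0.115, 0.112, 0.0443 and 0.016, and Nlrp3 (0.299 ± 0.0687), just before them, did not overlap Ccl3.

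In KO animals Il10ra was lower in both tissues, and Pycard was lower in KO isolates. No member was higher in KO than in Het by the test. In forebrain Il10ra had 3.70, 4.21, 3.15 and 3.83 CPM in Het animals 1, 20, 21 and 23 and 1.84, 1.29 and 1.70 CPM in KO animals 3, 6 and 24. The arms did not overlap, and KO was at 42.1% of Het (log2 fold change -1.25, SE 0.171, edgeR adjusted p 0.00354). This passed in 12 of 12 alternative fits, 7 of which left out 1 animal. In the isolates the same gene had 269.1, 370.6, 607.5 and 429.5 CPM in Het and 127.8, 145.2 and 135.0 CPM in KO. Again no KO library reached the lowest Het library (log2 fold change -1.61, SE 0.281, edgeR adjusted p 0.0276).

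Pycard in the isolates had 15.3, 18.3, 25.1 and 17.4 CPM in Het and 7.97, 9.003 and 6.70 CPM in KO. The KO isolates were at 42.3% of Het without overlap (log2 fold change -1.24, SE 0.203, edgeR adjusted p 0.0234). Both isolate calls passed without Het 1 or Het 21 and ended without Het 20, Het 23, KO 3, KO 6 or KO 24. Those 5 fits called 0 genes of all tested, and the edgeR adjusted p reached 0.218 for Pycard and 0.246 for Il10ra without KO 3. Casp1, the partner of Pycard, had 14.7, 16.3, 26.9 and 19.0 CPM in Het and 9.03, 9.56 and 9.71 CPM in KO. Its arms did not overlap either, and its value lay just outside the threshold (log2 fold change -0.997, SE 0.218, edgeR adjusted p 0.0504; under 0.05 in 6 of 12 alternative fits). Nlrp3 ranged more widely in Het, at 92.2, 174.6, 238.3 and 185.4 CPM against 112.3, 119.6 and 98.7 CPM in KO, and the arms overlapped (log2 fold change -0.65, SE 0.301, edgeR adjusted p 0.179).

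Neither chemokine gene passed in KO isolates, and among Het isolates Ccl3 spanned 4.93-fold from lowest to highest. Ccl4 had 109.6, 121.8, 336.4 and 208.8 CPM in Het and 57.1, 69.4 and 88.8 CPM in KO, with no overlap. Its difference did not pass (log2 fold change -1.40, SE 0.434, edgeR adjusted p 0.104), though it did in 5 of 12 alternative fits, DESeq2 (adjusted p 0.013) among them. Ccl3 had 74.1, 121.4, 365.7 and 205.1 CPM in Het and 56.6, 73.8 and 111.2 CPM in KO, which overlapped (log2 fold change -1.24, SE 0.575, edgeR adjusted p 0.177). In both genes Het animal 21 was highest and Het animal 1 lowest.

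Among the cytokines, Il1a and Tnf lay below Het on average and Il1b and Il18 did not. Il1a had 125.8, 238.0, 455.3 and 292.3 CPM in Het and 112.2, 136.0 and 143.2 CPM in KO isolates (log2 fold change -1.09, SE 0.408, edgeR adjusted p 0.133). Tnf had 14.9, 30.8, 81.7 and 54.1 CPM in Het and 20.7, 27.2 and 30.1 CPM in KO (log2 fold change -0.81, SE 0.540, edgeR adjusted p 0.312). For Tnf all KO libraries lay inside the Het range, and for Il1a 2 of 3 did. Il1b had 23.9, 85.6, 54.3 and 49.9 CPM in Het and 66.2, 66.2 and 33.3 CPM in KO (log2 fold change 0.07, SE 0.432). Il18 had 52.7, 47.9, 38.0 and 50.6 CPM in Het and 54.6, 43.1 and 55.8 CPM in KO (log2 fold change 0.12, SE 0.179). The arms overlapped in both genes, and each difference was smaller than its SE.

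Of the 10 members 2 passed downward in KO isolates, where 5.22% of all genes tested did. Groups without overlap, KO below Het, were seen for 4 of 10 members (Ccl4, Pycard, Casp1 and Il10ra) and for 19.4% of all genes tested. The median of the 10 was -1.04, against 0.02 over all genes, -1.63 over homeostatic microglia genes and -1.33 over pan-myeloid genes. Immediate early and heat-shock genes had a median of -0.94 with 4 of 14 lower, and their summed level was 8340 to 16820 CPM in Het and 4897 to 5597 CPM in KO isolates. The sum of 12 neutrophil and monocyte genes was 48.3 to 64.1 CPM in Het and 48.8 to 101.6 CPM in KO. The part of these cells and of the stress genes in the result was not tested.

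**Figure D2:**
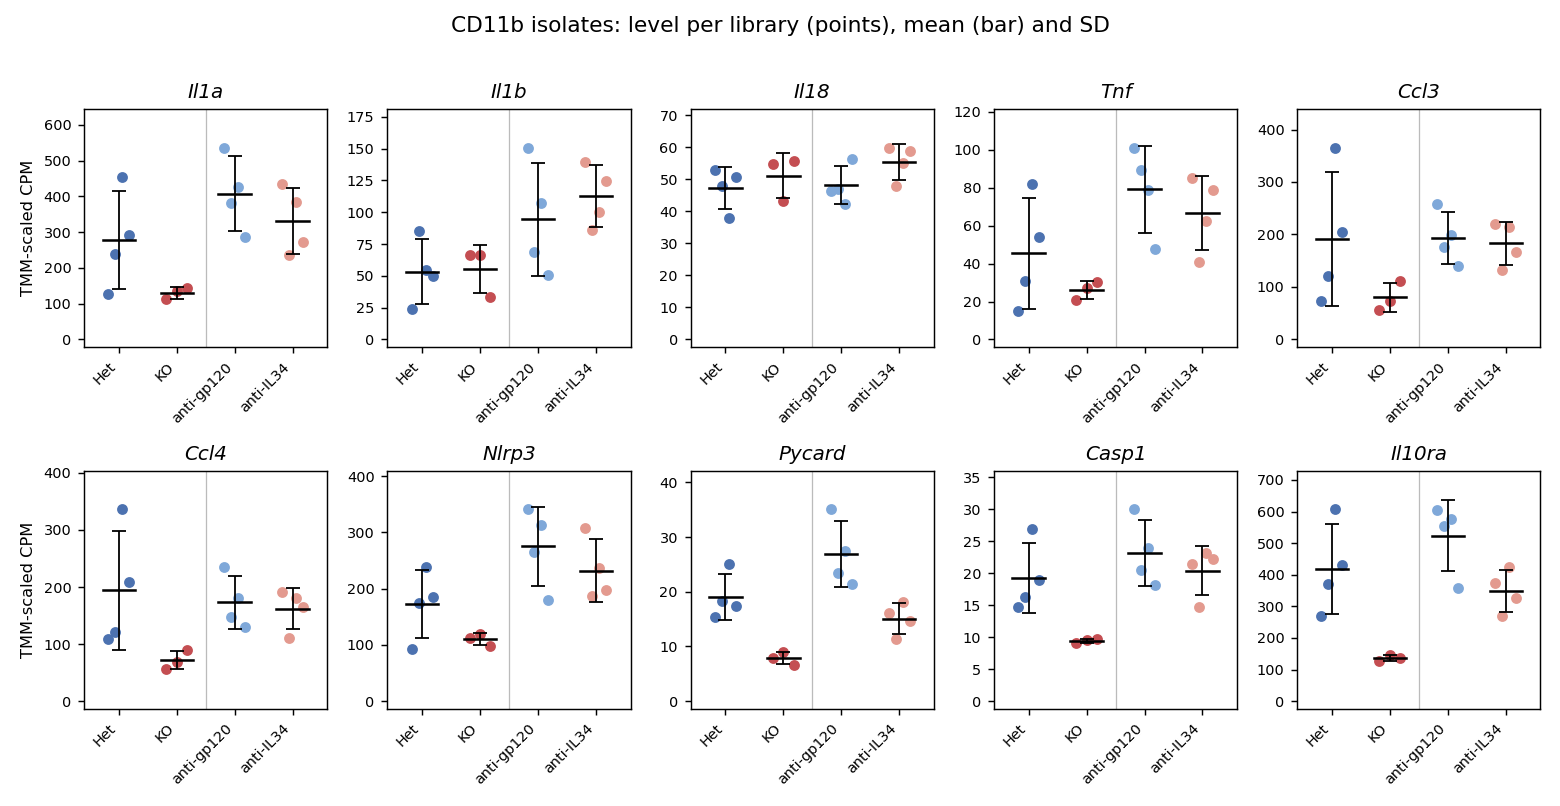
TMM-scaled CPM of each member in every CD11b isolate (points), with the arm's mean and SD; the vertical line parts the 2 experiments. Pycard, Casp1, Ccl4 and Il10ra in KO lie below every Het library, while Il18 lies between 38.0 and 59.9 CPM in all 15 isolates.

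In KO forebrain 1 of 7 members tested passed downward, Il10ra as given above, where 0.615% of all genes did. Tnf, Ccl3 and Ccl4 had too few reads to be tested, with 0 to 12 reads a library in these 7 animals. Without overlap, KO below Het, were 5 of 7 members (Il1a, Il18, Nlrp3, Pycard and Il10ra), against 5.24% of all genes tested. Nlrp3 had 0.957, 0.923, 1.18 and 1.01 CPM in Het and 0.766, 0.498 and 0.331 CPM in KO (log2 fold change -0.85, SE 0.257, edgeR adjusted p 0.342). Pycard had 1.31, 1.16, 1.27 and 1.11 CPM in Het and 0.9504, 0.646 and 0.568 CPM in KO (log2 fold change -0.69, SE 0.211, edgeR adjusted p 0.346). Il1a had 0.622, 0.794, 0.491 and 0.900 CPM in Het and 0.399, 0.388 and 0.378 CPM in KO (log2 fold change -0.91, SE 0.285, edgeR adjusted p 0.377). These 3 genes were separated by arm in every library, and 0 of the 3 passed the test over all genes. Such levels rest on 7 to 60 reads a library for Nlrp3 and 8 to 47 for Il1a. Casp1 (log2 fold change -0.18, SE 0.266) and Il1b (-0.24, SE 0.439) overlapped between arms. Il18 differed by -0.12 (SE 0.0623, edgeR adjusted p 0.715), with 24.4 to 28.04 CPM in Het and 23.5 to 24.3 CPM in KO. The pan-myeloid sum in the same libraries was 79.2 to 86.7 CPM in Het and 34.98 to 37.1 CPM in KO forebrain. Of 6 oligodendrocyte genes 5 were also lower in KO forebrain (median -0.35), with a sum of 5344 to 6387 CPM in Het and 4356 to 4683 CPM in KO. The part of either in these values was not tested.

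**Figure D3:**
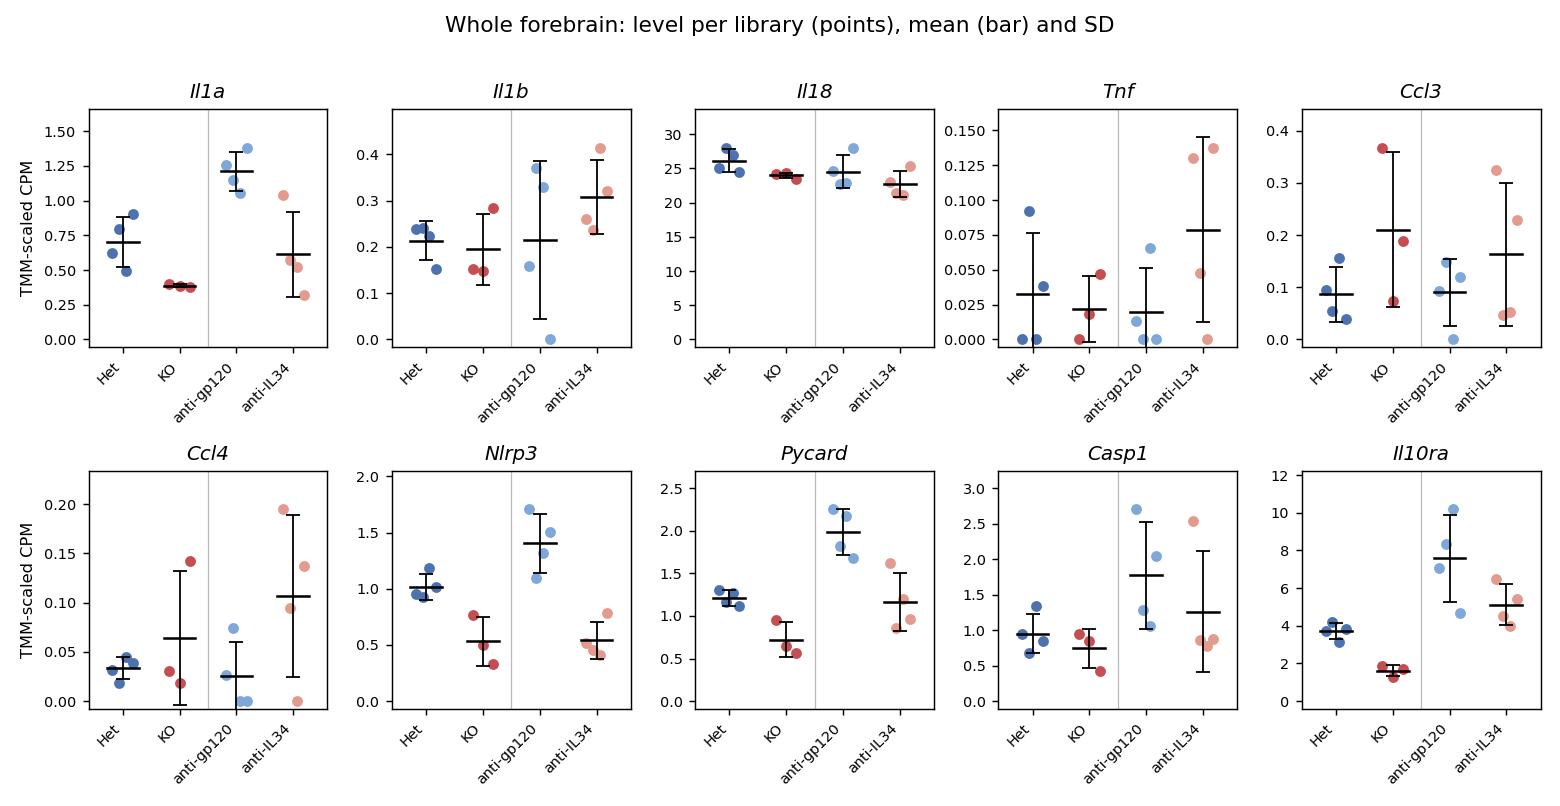
TMM-scaled CPM of each member in every whole-forebrain library (points), with the arm's mean and SD, on a scale of its own per gene. Il10ra in KO (1.29 to 1.84 CPM) lies below Het (3.15 to 4.21 CPM), and the points of Tnf, Ccl3 and Ccl4 stand for 0 to 12 reads each.

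Blocking IL-34 with antibody left 0 members past the threshold in the isolates and 1 in forebrain, where Nlrp3 was lower. In forebrain Nlrp3 had 1.71, 1.10, 1.31 and 1.503 CPM in anti-gp120 animals 1, 7, 8 and 15 and 0.520, 0.451, 0.415 and 0.781 CPM in anti-IL34 animals 2, 10, 11 and 24. Every anti-IL34 library lay below every control library, at a fitted 37.3% of control (log2 fold change -1.42, SE 0.281, edgeR adjusted p 0.0482). Leaving out any 1 of the 8 animals ended the call, with edgeR adjusted p up to 0.374 without anti-IL34 animal 11. It rests on 8 to 129 reads a library.

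Il10ra in forebrain had 7.09, 8.34, 10.2 and 4.69 CPM with anti-gp120 and 6.50, 4.54, 3.99 and 5.42 CPM with anti-IL34, and the arms overlapped (log2 fold change -0.63, SE 0.220, edgeR adjusted p 0.633). Il1a had 1.26, 1.15, 1.05 and 1.38 CPM against 1.04, 0.570, 0.519 and 0.321 CPM (log2 fold change -1.06, SE 0.307, edgeR adjusted p 0.335). Pycard had 2.25, 1.82, 2.17 and 1.68 CPM against 1.62, 0.855, 1.19 and 0.964 CPM (log2 fold change -0.85, SE 0.237, edgeR adjusted p 0.294). Il1a and Pycard did not overlap between arms, each by a narrow gap to anti-IL34 animal 2. Casp1 in that animal stood at 2.53 CPM, above 3 of the 4 controls, with the other 3 treated animals between 0.778 and 0.872 CPM (log2 fold change -0.72, SE 0.403). Il18 ran from 22.6 to 27.9 CPM with anti-gp120 and 21.1 to 25.4 CPM with anti-IL34 (log2 fold change -0.11, SE 0.0989). One of 6 members tested passed downward, against 0.525% of all genes. Lack of overlap, treated below control, was seen for 3 of 6 members (Il1a, Nlrp3 and Pycard) and for 2.07% of all genes tested. Il1b joined Tnf, Ccl3 and Ccl4 among the genes not tested, with 0 to 20 reads a library. The pan-myeloid sum was 128.1 to 202.9 CPM with anti-gp120 and 68.15 to 112.5 CPM with anti-IL34, and its part was not tested. The 7 forebrain libraries of KO and anti-IL34 animals held 9 reads of Tnf, 33 of Ccl3 and 15 of Ccl4 together, or 0.0435, 0.159 and 0.0724 reads per M, with exact Poisson 95% intervals (counting error only) of 0.0199 to 0.0825, 0.11 to 0.224 and 0.0405 to 0.119. These sums pool both experiments, and no difference was tested over animals. By arm, mean Tnf was 0.0327 CPM in Het and 0.0219 CPM in KO, and 0.0197 CPM with anti-gp120 and 0.0788 CPM with anti-IL34. These means rest on 0 to 5 reads a library with overlapping arms, so no direction is read from them. Mean Ccl3 was 0.0864 CPM in Het and 0.2103 CPM in KO, and 0.0904 and 0.1635 CPM in the antibody arms, with overlap in both. Mean Ccl4 was 0.0333 CPM in Het and 0.0637 CPM in KO, and 0.0252 and 0.1069 CPM in the antibody arms, again with overlap in both.

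In the isolates Pycard had 35.1, 23.4, 27.4 and 21.4 CPM with anti-gp120 and 16.2, 11.4, 18.1 and 14.7 CPM with anti-IL34. It was the member without overlap between arms, and its difference missed the threshold (log2 fold change -0.80, SE 0.208, edgeR adjusted p 0.0962; under 0.05 in 5 of 13 alternative fits, such as DESeq2 with adjusted p 0.0147). Il10ra had 605.2, 554.8, 575.8 and 358.3 CPM against 374.4, 270.3, 425.3 and 325.7 CPM, with control animal 15 inside the treated range (log2 fold change -0.56, SE 0.219, edgeR adjusted p 0.176). Without anti-gp120 animal 15 both passed, with edgeR adjusted p of 0.00991 for Pycard and 0.0104 for Il10ra. That fit called 6905 genes over all, against 110 in the main fit, so nothing is read from this gain. In the other fits that left out 1 animal neither gene passed.

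The other members overlapped. Casp1 had 30.0, 20.5, 24.0 and 18.1 CPM with anti-gp120 and 21.5, 14.7, 23.1 and 22.2 CPM with anti-IL34 (log2 fold change -0.16, SE 0.211). Nlrp3 had 341.1, 265.5, 313.7 and 180.6 CPM against 308.4, 186.7, 236.5 and 196.9 CPM (log2 fold change -0.25, SE 0.240). Ccl3 ran from 139.8 to 257.3 CPM with anti-gp120 and 133.0 to 219.1 CPM with anti-IL34 (log2 fold change -0.06, SE 0.233), and Ccl4 from 129.3 to 234.6 and 111.2 to 191.6 CPM (-0.08, SE 0.238). Tnf ran from 47.6 to 101.1 CPM with anti-gp120 and 40.8 to 85.0 CPM with anti-IL34 (-0.29, SE 0.269), and Il1a from 286.2 to 536.8 and 235.6 to 435.0 CPM (-0.28, SE 0.261). In all 4 genes the arms overlapped over most of their range. Il1b lay at 150.9, 68.9, 107.1 and 50.6 CPM with anti-gp120 and 139.9, 86.1, 100.1 and 124.5 CPM with anti-IL34 (log2 fold change 0.21, SE 0.321). Il18 lay at 46.4, 47.1, 42.4 and 56.4 CPM with anti-gp120 and 59.9, 47.8, 55.0 and 58.9 CPM with anti-IL34 (log2 fold change 0.24, SE 0.130, edgeR adjusted p 0.245). By edgeR 0 of 10 members passed, where 0.603% of all genes tested passed downward. At an unadjusted edgeR p under 0.05 there were 2, Pycard and Il10ra, against 4559 of all 17570 genes tested. Nothing is read from that count. DESeq2, which called more genes over all than edgeR, called 1 member. One of 10 was lower without overlap, against 13.1% of all genes tested. The sum of the neutrophil and monocyte genes was 58.5 to 355.6 CPM with anti-gp120 and 187 to 513.4 CPM with anti-IL34; Il1b is also made by those cells, and their part was not tested.

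**Figure D4:**
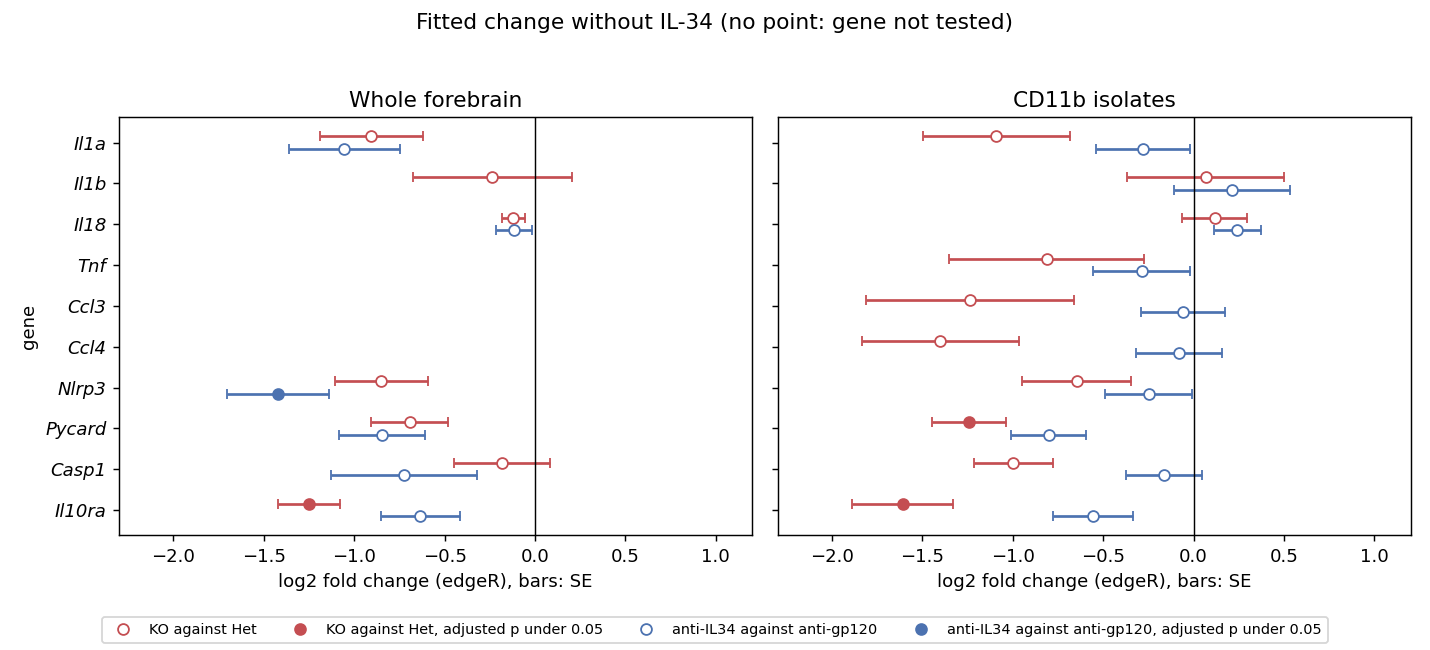
Fitted log2 fold change with SE (x axis) for each member in whole forebrain (left) and CD11b isolates (right), KO against Het in red and anti-IL34 against anti-gp120 in blue; filled points passed the adjusted p threshold of 0.05. Il10ra passed in both KO tissues, Pycard in KO isolates and Nlrp3 in antibody forebrain, while Il1b and Il18 lay above 0 in the isolates.

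The deletion and antibody effects were compared directly, since the experiments share no library. In the isolates all 10 members had a fitted deletion effect below the antibody effect, by -1.30 for Ccl4 (SE 0.501), -1.03 for Il10ra (SE 0.358) and -0.81 for Casp1 (SE 0.314), where 51.5% of all genes lay below 0. The median was -0.64 over the members, -0.61 over pan-myeloid genes (11 of 11 below 0) and -0.58 over immediate early and heat-shock genes (14 of 14 below 0). The median of 6 choroid plexus and ependyma genes was -3.67 (6 of 6 below 0). The part of these lists was not tested. Ccl4, Il10ra and Casp1 had an unadjusted edgeR p under 0.05 (0.0217, 0.0124 and 0.0222), and 0 of 10 passed after adjustment (lowest edgeR adjusted p 0.907). The test called 0% of 18732 genes, with 740 at an unadjusted p under 0.05, and DESeq2 called 41 genes, no member among them. In forebrain 0 of 7 members passed, against 0.0101% of 19724 genes; Il10ra differed by -0.63 (SE 0.307) and Nlrp3 by 0.57 (SE 0.379).

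Whether an effect differed between the tissues was tested as an interaction. Of the 10 members 0 passed in the genotype experiment, where 2.98% of all genes did (edgeR). At an unadjusted edgeR p under 0.05 there were 0 members, against 6242 of 20107 genes tested. With the animal as a block 0 genes were called. Tnf, Ccl3 and Ccl4 are among the 10 only through their isolate counts, with SEs of 2.07, 1.31 and 1.75, and their missing the threshold says nothing. Il10ra differed by -0.35 (SE 0.357), Pycard by -0.51 (SE 0.283), Casp1 by -0.78 (SE 0.359, unadjusted edgeR p 0.0511) and Il1a by -0.16 (SE 0.651). DESeq2 called Ccl3 (adjusted p 0.017), a gene with 2 to 12 reads in those forebrain libraries. In the antibody experiment 0 of 10 passed and 0.0924% of all genes did, again 0 genes with the block, and here Il1b too had not been testable in forebrain. The unadjusted edgeR p was under 0.05 for 2 members, Nlrp3 (1.16, SE 0.405), whose difference was larger in forebrain, and Il18 (0.35, SE 0.157). The same held for 3890 of 18399 genes tested, so nothing is read from this count.

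The genes around the members were read from lists. Counts of lower genes are to be read against the shares over all genes, 5.22% in KO isolates, 0.615% in KO forebrain, 0.525% in anti-IL34 forebrain and 0.603% in anti-IL34 isolates. Of the inflammasome sensors and effectors, 9 of 16 tested were lower in KO isolates and 0 higher (median -1.24): the sensor genes Nlrp1b (-1.32, SE 0.144), Naip6 (-1.36, SE 0.176) and Naip5 (-1.35, SE 0.200), and Casp8 (-1.26, SE 0.173), which encodes an apoptotic protease, had the smallest p. In KO forebrain 2 of 16 were lower, Nlrp1b (-1.28, edgeR adjusted p 0.0126) and Naip5 (-1.12, edgeR adjusted p 0.0483). In the antibody experiment 0 of 14 passed in forebrain and 0 of 16 in the isolates, where Txnip, which encodes a binding partner of NLRP3, missed it (-1.22, SE 0.221, edgeR adjusted p 0.0557).

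In the chemokine list 1 of 7 genes tested was higher in anti-IL34 forebrain, Cxcl10, an interferon-induced chemokine gene (2.55, SE 0.430, edgeR adjusted p 0.0205), and 1 of 7 was lower. In that list 1 of 7 was lower in KO forebrain, 1 of 14 in KO isolates and 0 of 14 in anti-IL34 isolates. The TNF receptor Tnfrsf1b was lower in KO isolates (-1.26, SE 0.272, edgeR adjusted p 0.0484) and in anti-IL34 forebrain (-0.99, SE 0.159, edgeR adjusted p 0.016). Adam17, which encodes the protease that sheds TNF, was the other of the 2 of 11 genes of the TNF list lower in KO isolates (-0.76, SE 0.165, edgeR adjusted p 0.05, under the threshold before rounding), where 5.22% of all genes were lower.

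In the list of the IL-10 pathway and related anti-inflammatory receptors 4 of 11 were lower in KO isolates, against 5.22% of all genes, namely Il4ra (-1.08, SE 0.207), Tgfbr1 (-1.42, SE 0.273), Tgfb1 (-1.23, SE 0.252) and Il13ra1 (-0.87, SE 0.181). Tgfbr1, a receptor chain of TGF-beta, was also the 1 of 10 lower in KO forebrain (-0.50, edgeR adjusted p 0.00325) and in anti-IL34 forebrain (-0.48, edgeR adjusted p 0.0137). Among the receptors and antagonists of IL-1 and IL-18 only the kinase gene Irak4 passed in KO isolates (-0.64, SE 0.132, 1 of 14), and 0 genes passed in the other 3 comparisons. In the NF-kB list Nfkbid, an atypical inhibitor gene, was the 1 of 16 lower in KO isolates (-1.36, SE 0.231, edgeR adjusted p 0.026), with 0 in the other 3 comparisons. Of the other cytokine genes Il16 was the 1 of 13 lower in KO isolates (-1.33, SE 0.187, edgeR adjusted p 0.0164), and 0 passed in the other 3. For the chemokine, IL-1 and IL-18, NF-kB and other cytokine lists in KO isolates, 1 call among 13 to 16 genes is near the 5.22% of all genes and is no result about the list. All of these KO isolate calls stand under the same limit as that of Pycard, since 5 of the 7 fits that left out 1 animal called 0 genes.

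The summed level of 12 pan-myeloid genes was 4037 to 7519 CPM in Het and 1858 to 2130 CPM in KO isolates, without overlap. It was 5529 to 9020 CPM with anti-gp120 and 3599 to 5671 CPM with anti-IL34, with a small overlap. Each member was also read relative to that sum, as CPM per 1000 CPM of the list in the same library, a measure chosen after the levels had been seen and given without a test. Il10ra then stood at 76.5 ± 6.64 in Het (SD, n = 4) and 67.1 ± 2.47 in KO (SD, n = 3), and Pycard at 3.57 ± 0.365 and 3.90 ± 0.620, with overlapping arms in both genes. Casp1 stood at 3.55 ± 0.0761 in Het and 4.66 ± 0.189 in KO, and Nlrp3 at 31.5 ± 6.31 and 54.5 ± 6.88, with every KO library above every Het library. Il18 went from 9.43 ± 3.33 to 25.4 ± 4.69 without overlap, and Il1b from 10.2 ± 5.69 to 27.5 ± 10.4 with overlap. Higher without overlap were 4 of 10 members (Il18, Tnf, Nlrp3 and Casp1), against 84.2% of all genes tested, and 0 of 10 were lower; the denominator itself was lower in KO.

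In the antibody experiment Casp1 stood at 3.15 ± 0.188 with anti-gp120 and 4.42 ± 0.478 with anti-IL34 (SD, n = 4 each), Nlrp3 at 37.1 ± 3.11 and 50.5 ± 9.39, and Il1b at 12.3 ± 3.36 and 24.7 ± 5.2. Ccl3 stood at 26.1 ± 1.86 and 39.4 ± 3.63, and Ccl4 at 23.4 ± 1.88 and 35 ± 4.28. Against the myeloid sum 6 of 10 members were higher without overlap (Il1a, Il1b, Ccl3, Ccl4, Nlrp3 and Casp1), where 21% of all genes tested were. Pycard (3.65 ± 0.277 and 3.26 ± 0.108) and Il10ra (71.3 ± 8.30 and 75.4 ± 0.791) overlapped, as did Il18 and Tnf. The median of the pan-myeloid list itself was -0.64 on the log2 scale here.

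**Figure D5:**
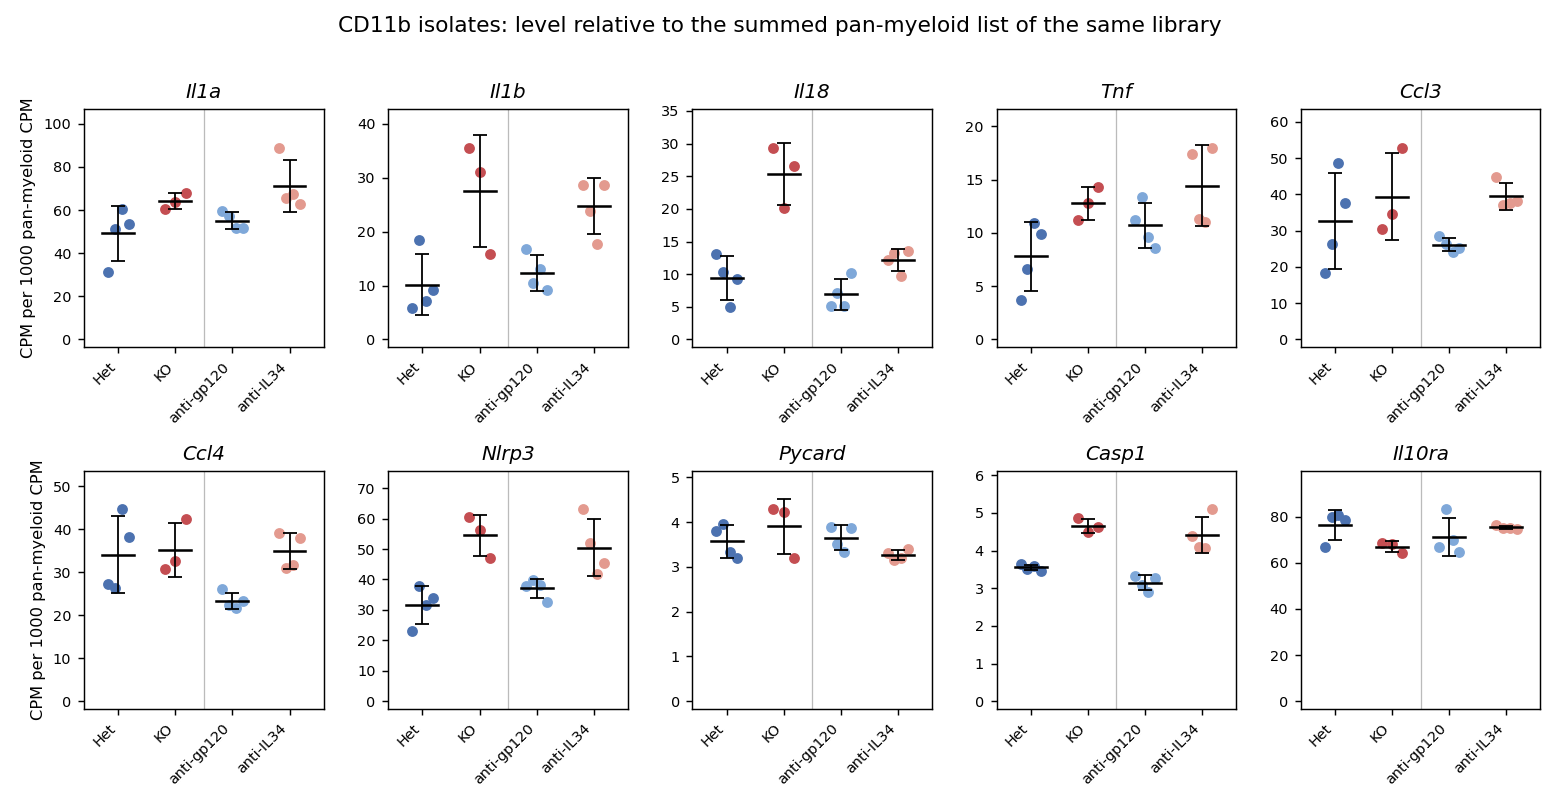
Level of each member in every CD11b isolate as CPM per 1000 CPM of the summed pan-myeloid list (points), with the arm's mean and SD. Casp1 and Nlrp3 lie higher in KO and in anti-IL34 isolates with no overlap, while Pycard and Il10ra overlap.

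Across the 15 isolates the members other than Il1b and Il18 varied together, with r from 0.691 (Tnf with Pycard) to 0.965. Pearson's r of log2 CPM was 0.965 for Il1a with Nlrp3, 0.960 for Ccl3 with Ccl4, 0.956 for Pycard with Il10ra and 0.953 for Casp1 with Il10ra. Il1b correlated less with those 8, from 0.347 with Ccl4 to 0.769 with Nlrp3. Il18 ran from -0.371 with Pycard to 0.000539 with Il1b. With arm means removed the first 3 pairs kept 0.93, 0.966 and 0.833, and Il18 ran from -0.556 with Il10ra to -0.350 with Ccl4. These are descriptions over 15 libraries that share their arms, their scaling and their content of myeloid cells.

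Of 18731 other genes in the isolates, the patterns most like Il10ra were those of Gsdmd (r = 0.991), Themis2 (0.990) and Cyb561a3 (0.987), and most like Pycard those of Acp2 (0.990), Tmem86a (0.988) and Sting1 (0.987). Casp1 was closest to Naip2 (0.982), Psap and Lgals9 (0.980 each). Gsdmd encodes the pore-forming target of caspase-1, and Naip2 a sensor of another inflammasome. Nlrp3 was closest to Birc3 (0.982), Rrad (0.979) and Casp4 (0.977), and Il1a to Rabgef1 (0.982), Osm and Birc3 (0.978 each). Tnf was closest to Sertad1 (0.968), Nfkbia (0.961) and Cd274 (0.944). Nfkbia, Birc3 and Cd274 are known as genes switched on by NF-kB. Ccl3 was closest to Pmaip1, C3ar1 (0.964 each) and Trib1 (0.961), and Ccl4 to Ccdc86 (0.970), Ascc3 (0.969) and Ccl3 (0.960). Il1b was closest to S100a11 (0.938), Fgl2 (0.913) and Slfn2 (0.912), and the nearest to Il18 were Gm28437 (0.888), Tfcp2l1 (0.876) and Slc26a8 (0.872). These patterns too share their arms, their scaling and their content of myeloid cells. The functions named are background, and no link between genes was tested.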

How the data were processed

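The authors deposited whole-number read counts per gene for 30 libraries of 15 mice, made with the SMART-Seq v4 kit per the labels' protocols; STAR 2.7.5c, featureCounts 1.6.3, R 4.4.0 and GRCm38 are named in the submitters' processing notes. Counting settings are not given in the sources used here. The deposited gene Length, another value in the count table, equals the whole gene span for 51183 of 51498 matched genes. The deposited sample sheet gives animal numbers and sex, which equalled the labels in 30 of 30 rows. Count columns without labels (6) were not used, and 8 genes had blank names.

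The 10 members and all gene lists were chosen with earlier results of these data known. Counts were tested over all genes with edgeR 4.0.16 in R 4.3.3 (quasi-likelihood F test, TMM, filterByExpr, sex as covariate, Benjamini-Hochberg at 0.05), within 1 tissue and experiment for the arm comparisons. SE is the log2 fold change over the square root of F. All members are described in each comparison; of each other list the 4 called genes with the smallest p are named, or the 2 of highest level. Likeness is Pearson's r of log2 CPM (prior count 2). Lists were described by counts and medians. A gene of the chemokine list is not reported here. The script was tested on simulated counts with 200 changed genes. Alternatives were RLE scaling, no filter, DESeq2 1.42.0, no sex terms, all 15 libraries of a tissue, leaving out each animal, and a block on the animal.

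Both libraries of a mouse carry 1 animal number in the labels and the sample sheet, so forebrain and isolate are paired. The correlation of their deviations over genes had a median of 0.11 (0.0417 to 0.171, above 0.1 in 9 of 15 animals), against -0.0359 for other animals of the arm. Of 42 replicate pairs none was a repeated library (lowest chi-square per degree of freedom 5.48). Depth (15.1 to 75.2 M counts) limits the precision of members near 0 in forebrain.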

Additional observations from a re-analysis of the deposited data

Results flagged for a closer look

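Casp1 in the forebrain of anti-IL34 animal 2 stood at 2.534 CPM (39 reads), while the other 3 animals of its arm ran from 0.778 to 0.8724 CPM. The gap to the nearest was 0.946 of the arm's range, above Dixon's 95% critical value for 4 samples. This was 1 of 60 groups of 4 libraries examined over the members, and chance alone gives about 1 in 20.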

How the results depend on the processing

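Of 1115 member values under alternative settings, 1072 kept their side of the threshold (40 values changed sign while not past it), 18 lost the call, 25 gained one and 0 called values reversed. Member counts in the tissue contrast (10) and in KO forebrain (1) did not move. In KO isolates the 2 members called became 4 without a filter, 5 with DESeq2, 4 with all 15 libraries of the tissue and 0 to 6 leaving out 1 animal. In antibody forebrain the 1 became 4 without a filter and 0 leaving out any 1 animal. In antibody isolates the 0 became 1 without a filter, with DESeq2, without sex terms and with all 15 libraries, and 0 to 2 leaving out 1 animal. DESeq2 called 1 member in the deletion interaction (Ccl3), and the fit without a filter 1 in the antibody interaction (Nlrp3, adjusted p 0.0167).

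Counts over all genes moved more. KO forebrain had 120, with 381 unfiltered and 55 to 117 leaving out 1 animal. KO isolates had 976, with 1993 unfiltered, 3710 with DESeq2, 2189 without sex terms, 2734 with 15 libraries and 0 to 5756 leaving out 1 animal (5756 without Het 1). Antibody forebrain had 123, with 349 unfiltered, 204 with DESeq2, 204 with 15 libraries and 25 to 126 leaving out 1 animal. Antibody isolates had 110, with 819, 1868, 983 without sex terms, 988 with 15 libraries and 0 to 6905 leaving out 1 animal (6905 without anti-gp120 animal 15). The deletion interaction had 599, with 1569 unfiltered, 3557 with DESeq2, 2400 without sex terms and 0 to 5688 leaving out 1 animal. The antibody interaction had 17, with 48 under RLE, 1352 unfiltered, 1090 with DESeq2, 222 without sex terms and 0 to 5565 leaving out 1 animal. Deletion against antibody had 2 in forebrain, with 114 unfiltered, 30 with DESeq2, 4 without sex terms and 2 to 33 leaving out 1 animal, and 0 in isolates, with 1, 41 and 0 to 5. With the animal as a replicate block both interactions called 0 genes and 0 members, and the tissue contrast 16529 (16663 without the block) and 10 members; the block changed no member call. The causes of these changes were not tested. Tnf, Ccl3 and Ccl4 had at most 12 reads in a forebrain library and were not tested between the arms there.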
